A study of Mus musculus with 30 samples.

Results

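This comparison sets CD49a+ natural killer (NK) cells against CD49b+ NK cells, the conventional subset, sorted from the same kind of skin graft in C57BL/6 (B6) recipients. It uses 6 of the 30 libraries of the series, 3 in each group, chosen by the labelled cell type, tissue and model, and 16045 of the 30587 named genes, those that reached a signal of 10 in 3 or more libraries. Signal is the authors' DESeq2-normalized value of a gene in a library. Recipients of both groups were C57BL/6 mice of the genotype NKp46iCre/iCre.RosamTmG/mTmG, in which Cre made from the Ncr1 (NKp46) locus switches a red reporter to green, and both carried m157tg B2m-/- skin until day 20 after grafting. The sort took green cells that stained for CD49a in one group and for CD49b in the other, so any cell that had once made NKp46-driven Cre could enter either gate, and both alleles of Ncr1 carry the Cre insertion in both groups. The F1 model is used here for 1 test of difference: its C57BL/6xBalb/c recipients had the genotype NKp46+/iCre.Rosa+/mTmG and carried m157tg B2m+/- skin until day 10, with 3 libraries for each graft subset. The labels do not say whether libraries came from separate animals or from pools, so p-values measure spread between libraries, which may be technical. That spread is 1 estimate per gene over all 30 libraries, blood and spleen included, and not over the 6 compared libraries alone. The labels used give no ages.

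NK cells are innate lymphocytes that kill target cells through perforin and granzymes and read class I major histocompatibility (MHC) molecules through Ly49 and NKG2 receptors. The m157 protein of mouse cytomegalovirus is bound by the activating receptor Ly49H (Klra8), and skin without beta-2 microglobulin lacks the class I molecules that inhibitory Ly49 receptors recognise. CD49b (Itga2) is carried by circulating mouse NK cells, whereas CD49a (Itga1), a collagen-binding integrin subunit, marks NK-lineage cells that stay in tissues. In mice, cells that leave the circulation for a tissue typically lose sphingosine-1-phosphate receptors, and resident cells often carry CD103 (Itgae), which binds E-cadherin of the epithelium.

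The 6 libraries differed in how much leukocyte RNA they held, and 2 CD49a+ libraries stood apart. The mean log2(signal + 1) of 20 pan-leukocyte transcripts such as Ptprc and Coro1a was 5.70, 8.10 and 6.23 in CD49a+ libraries 1 to 3, against 7.62, 8.37 and 7.70 in CD49b+ libraries 1 to 3. That equals 12.8, 67.9 and 18.6 percent of the mean of the circulating libraries in CD49a+ cells and 48.8, 81.9 and 51.3 percent in CD49b+ cells. CD49a+ libraries 1 and 3 were below all 3 CD49b+ libraries, and CD49a+ library 2 lay within their range. The difference of -1.22 did not pass an exact two-sided permutation test (p = 0.3, with 0.1 the smallest that 3 against 3 libraries allow). In bulk libraries, fewer cells of a type and less RNA per cell cannot be told apart. Keratinocyte transcripts (12 genes) summed to 5144, 136 and 1823 in CD49a+ cells, against 201, 627 and 1680 in CD49b+ cells. Fibroblast transcripts (12 genes) summed to 5093, 23.5 and 1442 in CD49a+ cells, against 2694, 321 and 298 in CD49b+ cells. CD49a+ library 2 was thus the lowest of the 6 in both classes, and CD49a+ library 1 the highest. CD49a+ library 2 correlated most closely with CD49b+ library 2 (r = 0.785 across genes), while the other pairs ranged from 0.54 to 0.665. Total signal ran from 2674221 to 3988756, of which 51.8 to 76.9 percent belonged to 11 satellite-like predicted genes, and read depth is unknown. Mitochondrial transcripts made up 9.95, 2.32 and 5.86 percent of the remaining signal in CD49a+ cells and 4.52, 5.10 and 4.39 percent in CD49b+ cells. Because of this split, results that turn on it are also given with CD49a+ library 2 set alone against the 3 CD49b+ libraries, a choice made after seeing the data in which the lone library is assumed to vary like the other groups. That fit sets a library numbered 2 against libraries of all 3 numbers, so subset and library number cannot be told apart in it. Some are also given without that library and on a leukocyte scale, on which every library is scaled to the same level of the 20 pan-leukocyte transcripts.

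**Figure D1:**
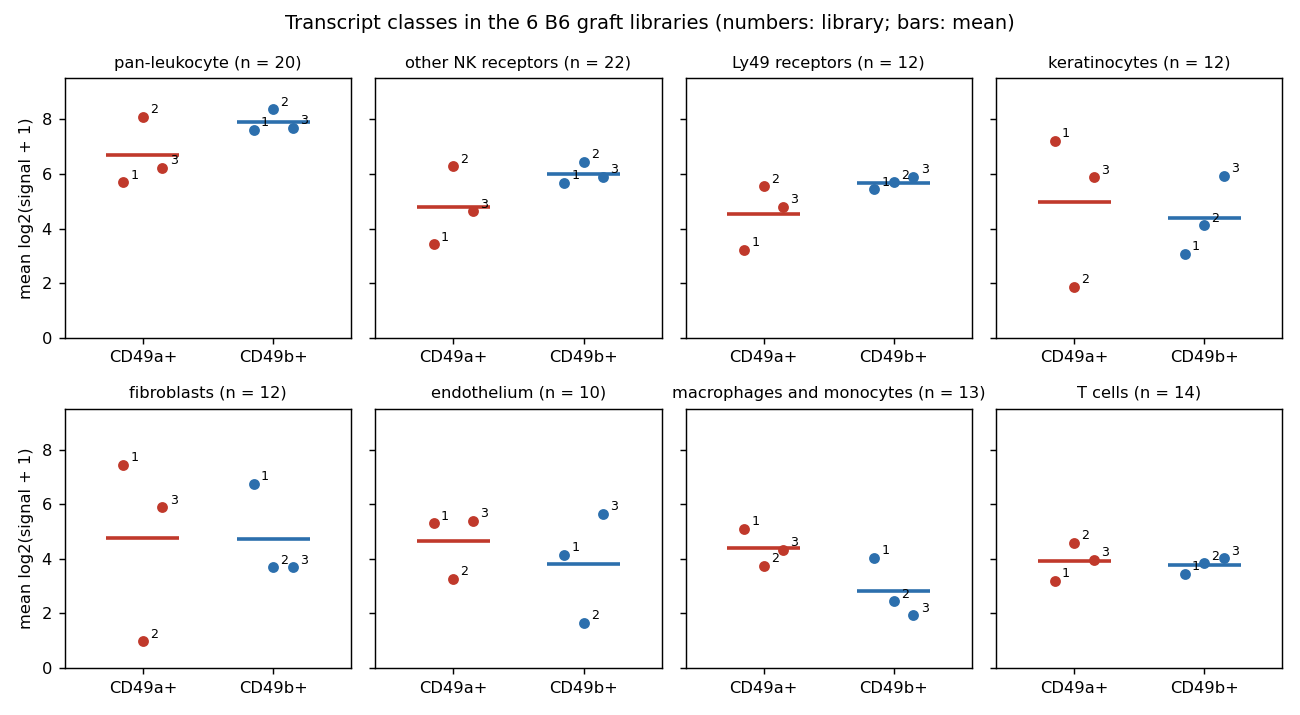
Mean log2(signal + 1) of 8 transcript lists (vertical axis) in the 3 CD49a+ libraries (left, red) and the 3 CD49b+ libraries (right, blue) of B6 grafts, with library numbers beside the points, means as bars and the number of genes in each title. CD49a+ libraries 1 and 3 lie below the CD49b+ libraries for pan-leukocyte and other NK receptor transcripts, and CD49a+ library 2 lies lowest for keratinocytes and fibroblasts.

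The genes behind the sort did not separate cleanly. Itga1, which encodes CD49a, was at 12.0, 116 and 32.0 in CD49a+ cells, against 11.2, 15.5 and 43.4 in CD49b+ cells. The groups overlapped, and CD49a+ library 2 alone stood above every CD49b+ library (log2 difference 0.83 ± 0.81 (SE), adjusted p = 0.964). Itga2, which encodes CD49b, was at 12.7, 7.93 and 4.25 in CD49a+ cells, against 11.8, 20.2 and 18.7 in CD49b+ cells, also with overlap (-1.02 ± 0.60, adjusted p = 0.881). On the leukocyte scale the difference was 2.00 for Itga1 and 0.12 for Itga2, and neither passed (adjusted p = 0.335 and 0.928, limma). Spleen CD49b+ cells of the same model held Itga2 at 47.0 ± 6.11 and Itga1 at 8.19 ± 4.54 (mean ± SD, n = 3). Ncr1, whose locus drives the reporter, was at 5.78, 18.5 and 19.8 in CD49a+ cells, against 55.8, 48.0 and 42.4 in CD49b+ cells. Its groups did not overlap (-1.82 ± 0.44), the adjusted p was 0.152, and the difference was -0.67 on the leukocyte scale. Sort genes were selected at the protein level, so these values check the labels and are no finding.

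Across all genes the call rule was an adjusted p under 0.05 in limma on log2(signal + 1). In CD49a+ cells 0 genes rose and 2 genes fell against CD49b+ cells, which is 0.00 and 0.0125 percent of those tested. At an unadjusted p under 0.05, 493 genes were higher (3.07 percent) and 548 lower (3.42 percent). The groups did not overlap for 642 genes higher (4.0 percent) and 533 genes lower (3.32 percent) in CD49a+ cells. The median difference of all genes was 0.09 on the log2 scale and 1.20 on the leukocyte scale. For the 20 pan-leukocyte transcripts it was -1.21 and -0.03, so values near 0 on the leukocyte scale follow these transcripts. Before that scaling 19 of the 20 lay below 0, and 9 were lower and 0 higher at an unadjusted p under 0.05 (limma). List medians and counts below are read against both sets. The called genes were Cma1 and AA414768. On the leukocyte scale neither passed, and 2 genes rose instead, Gzmc and H2-Q10 (0.0125 percent), with 0 genes lower by limma (0.00 percent) and 75 lower at an unadjusted p under 0.05 (0.467 percent).

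Cma1 fell in CD49a+ cells. It encodes mast cell chymase, a serine protease whose transcript is also made by mature mouse NK cells, and lies on chromosome 14 from 55941451 to 55944675 on the minus strand (GRCm38). Its signal was 2.55, 1.82 and 2.23 in CD49a+ libraries 1 to 3, against 39.8, 72.1 and 35.4 in CD49b+ libraries 1 to 3. All 3 CD49a+ libraries were low, the leukocyte-rich library 2 included, and the lowest CD49b+ library was far above the highest CD49a+ library. The log2 difference was -3.90 ± 0.64 (SE), 15-fold lower (adjusted p = 0.0129, limma). Spleen CD49b+ cells held 320 ± 38.0 and recipient skin CD49a+ cells 3.92 ± 6.80 (SD, n = 3 each). With CD49a+ library 2 alone the difference was -4.08 (adjusted p = 0.0957), and on the leukocyte scale it was -2.85 (adjusted p = 0.289). The call was lost without CD49b+ library 1 (adjusted p = 0.0502) or without CD49b+ library 3 (0.0674). It was also lost with the same total for every library (0.0665) and when fewer libraries gave the spread (limma). The adjusted p was then 0.222 with the 15 B6 libraries, 0.705 with the 18 skin libraries and 0.948 with the 6 libraries alone. Of 7 mast cell and basophil markers, which include the tryptases, 4 passed the filter and 0 differed at an unadjusted p under 0.05 (limma), and their list summed to 25.4, 27.8 and 143 in CD49a+ cells, against 167, 23.9 and 75.2 in CD49b+ cells, with the tryptases Tpsb2 and Tpsab1 at most at 1.80 and 0.877 in CD49a+ cells, against 1.17 and 3.57 in CD49b+ cells.

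Gzmc, granzyme C, belongs to the same cluster of serine protease genes, 287 kb from Cma1 (chromosome 14, 56231441 to 56234656, minus strand), and its difference had the opposite sign. It was at 55.5, 1504 and 168 in CD49a+ cells, against 5.06, 8.61 and 66.9 in CD49b+ cells. CD49a+ library 2 was the highest by far, and CD49a+ library 1 lay below CD49b+ library 3, so the groups overlapped. The log2 difference of 3.94 ± 1.04 did not pass (adjusted p = 0.220). Scaled to the leukocyte level, it was at 433, 2215 and 904 in CD49a+ cells, against 10.4, 10.5 and 130 in CD49b+ cells, without overlap. On that scale Gzmc rose by 5.13 ± 0.87 (adjusted p = 0.0117), and with CD49a+ library 2 alone on the deposited scale it rose by 6.57 (adjusted p = 0.0423). Without CD49a+ library 2 the difference was 2.63 (adjusted p = 0.286). CD49a+ cells of recipient skin held 838, 4181 and 359, and spleen CD49b+ cells 0.317 ± 0.281 (SD, n = 3). On the deposited scale Cma1 passed and Gzmc did not, and on the leukocyte scale Gzmc passed and Cma1 did not. The 300-base promoters of both genes, from 250 bases before to 50 after the start (RefSeq, GRCm38.p6, minus strand), are shown because the differences of these neighbours had opposite signs. Cma1 lies at chr14:55944626-55944925 and Gzmc at chr14:56234608-56234907.
Cma1: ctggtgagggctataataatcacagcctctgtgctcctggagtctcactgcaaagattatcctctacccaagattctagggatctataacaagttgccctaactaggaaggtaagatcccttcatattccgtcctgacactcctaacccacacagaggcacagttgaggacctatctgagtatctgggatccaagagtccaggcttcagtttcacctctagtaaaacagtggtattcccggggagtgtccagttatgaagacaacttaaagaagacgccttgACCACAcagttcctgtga
Gzmc: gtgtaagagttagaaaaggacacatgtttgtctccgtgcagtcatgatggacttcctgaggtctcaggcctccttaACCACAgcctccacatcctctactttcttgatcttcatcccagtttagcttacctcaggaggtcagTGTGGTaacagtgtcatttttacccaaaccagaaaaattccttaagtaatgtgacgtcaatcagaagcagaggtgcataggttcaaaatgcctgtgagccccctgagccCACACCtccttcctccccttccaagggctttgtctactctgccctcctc
Capitals mark matches, on either strand, to the motifs searched: the T-box half-site CACACC, the Runx motif TGTGGT, the AP-1 motif TGANTCA and the GATA motif AGATAA. Cma1 held 1 Runx match and Gzmc held 2 Runx matches and 1 T-box match, with no overlaps between them, and neither window held the AP-1 or GATA letters. Of 32851 promoters of this length, 16.8 percent held the Runx motif, 19 percent the T-box, 7.81 percent the AP-1 and 11.2 percent the GATA motif, so these matches are a description.

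The other called gene, AA414768, is annotated as a processed pseudogene on the X chromosome (12936872 to 12938128, plus strand). It was at 0.74, 0 and 0.698 in CD49a+ cells, against 124, 15.8 and 104 in CD49b+ cells, and fell by 5.40 ± 0.87 on the log2 scale (adjusted p = 0.0129). Reads of a processed pseudogene may be shared with its parent gene, so its level is uncertain. In the other groups of the series it reached 15.4 in 1 F1 recipient skin library and at most 0.913 elsewhere. AA414768 therefore passed the filter only because of the B6 CD49b+ graft libraries, the group in which it was high. Its call was lost without CD49b+ library 1 (adjusted p = 0.0752) or 3 (0.0893). The call was also lost with the same total for every library (0.0649) and when fewer libraries gave the spread (limma). The adjusted p was then 0.0924 with the 15 B6 libraries, 0.332 with the 18 skin libraries and 0.948 with the 6 libraries alone.

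**Figure D2:**
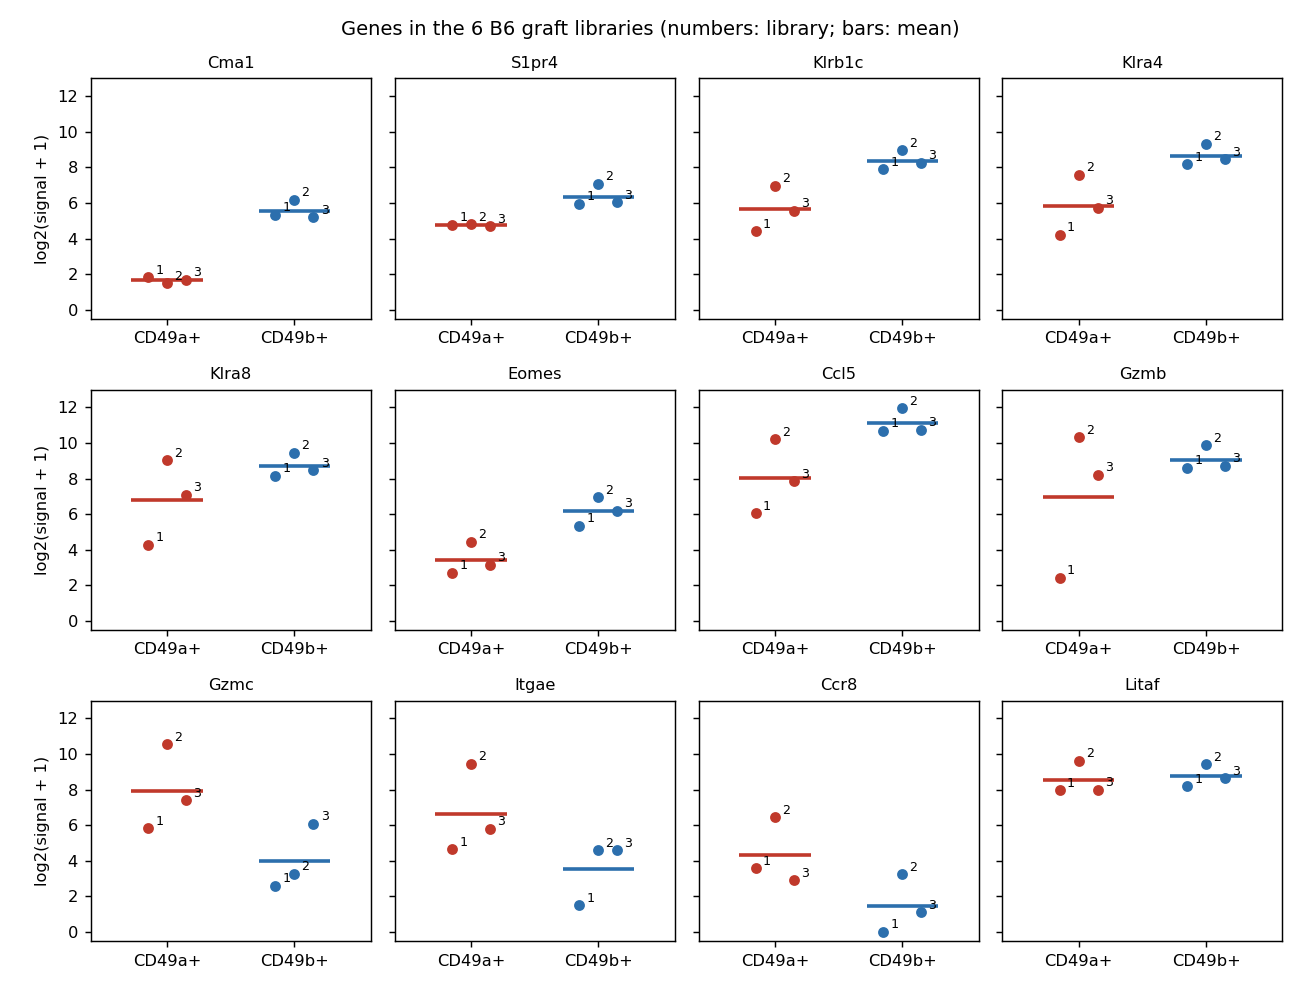
Log2(signal + 1) of 12 genes (vertical axis) in CD49a+ (left, red) and CD49b+ (right, blue) libraries of B6 grafts, with library numbers beside the points and means as bars. Cma1 and S1pr4 lie below every CD49b+ library in all 3 CD49a+ libraries, Klra8 and Gzmb are low mainly in CD49a+ libraries 1 and 3, and Gzmc, Itgae and Ccr8 are highest in CD49a+ library 2.

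Several genes linked to lymphocyte egress and recirculation had lower signal in CD49a+ cells on the deposited scale, without passing adjustment. S1pr4, a sphingosine-1-phosphate receptor, was at 26.2, 27.0 and 24.9 in CD49a+ cells, against 61.4, 133 and 64.3 in CD49b+ cells (-1.60 ± 0.43, adjusted p = 0.234). Its groups did not overlap, and the difference was -1.55 with CD49a+ library 2 alone but -0.40 on the leukocyte scale (adjusted p = 0.696). Ccr7, the chemokine receptor for lymph node entry, was at 3.57, 28.8 and 5.12 in CD49a+ cells, against 41.6, 96.6 and 48.6 in CD49b+ cells (-2.65 ± 0.90, adjusted p = 0.490). Itgam, the CD11b integrin chain, was at 56.3, 42.2 and 29.6 in CD49a+ cells, against 90.7, 128 and 98.3 in CD49b+ cells. S1pr1, another sphingosine-1-phosphate receptor, overlapped at 23.6, 20.6 and 92.2 in CD49a+ cells, against 35.4, 44.8 and 112 in CD49b+ cells (-0.64 ± 1.14). On the leukocyte scale the differences were -1.56 for Ccr7, -0.11 for Itgam and 0.56 for S1pr1. S1pr5, the receptor of NK cell egress, overlapped at 1.77, 0.8 and 4.98 in CD49a+ cells, against 2.82, 15.9 and 6.91 in CD49b+ cells, as did its regulator Klf2 at 15.6, 3.52 and 7.36 against 11.3, 29.3 and 11.5.

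Of the 13 egress and recirculation genes, all tested, 0 passed in limma, 4 were lower and 0 higher at an unadjusted p under 0.05, and 13 had a difference below 0. By that unadjusted rule 3.42 percent of all genes and 9 of the 20 pan-leukocyte transcripts were lower. Their median was -1.32, against 0.09 for all genes and -1.21 for the 20 pan-leukocyte transcripts. On the leukocyte scale it was -0.11, against 1.20 for all genes and -0.03 for the pan-leukocyte transcripts. With CD49a+ library 2 alone the egress median was -1.18, against 0.31 for the pan-leukocyte transcripts and -0.14 for all genes. Without that library it was -0.97, less far below 0 than the -2.03 of the pan-leukocyte transcripts, with 0.25 for all genes. Cx3cr1, the fractalkine receptor in the same list, was at 14.1, 58.5 and 12.0 in CD49a+ cells, against 18, 38.5 and 17.0 in CD49b+ cells, with overlap.

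Among genes of NK cell maturation, which include Cma1, Eomes encodes a T-box factor of conventional NK cells. Eomes was at 5.47, 20.8 and 7.82 in CD49a+ cells, against 39.6, 122 and 72.4 in CD49b+ cells. The groups did not overlap (-2.73 ± 0.98, adjusted p = 0.555), and the difference was -1.71 with CD49a+ library 2 alone. Tbx21, which encodes the related factor T-bet, was at 9.14, 243 and 14.2 in CD49a+ cells, against 112, 237 and 78.9 in CD49b+ cells. Here CD49a+ library 2 was slightly above the highest CD49b+ library while CD49a+ libraries 1 and 3 lay below all CD49b+ libraries. Its difference was -3.38 without CD49a+ library 2 (adjusted p = 0.0194) and 0.92 with that library alone (adjusted p = 1). Klrg1, a receptor of terminally mature cells, was at 7.83, 113 and 23.8 in CD49a+ cells, against 87.3, 152 and 95.8 in CD49b+ cells, with CD49a+ library 2 inside the CD49b+ range. It had -2.88 without CD49a+ library 2 (adjusted p = 0.0356) and 0.07 with that library alone. Cd27, found on less mature cells, was at 9.32, 71.0 and 101 in CD49a+ cells, against 71.1, 181 and 50.6 in CD49b+ cells, and Zeb2, a transcription factor that promotes late maturation, was at 45.3, 58.0 and 75.7 against 66.2, 51.2 and 59.1. Of the 14 genes 1 fell and 0 rose, 7 were lower at an unadjusted p under 0.05, and 14 had differences below 0. The unadjusted share was 3.42 percent for all genes, and 9 of 20 for the pan-leukocyte transcripts (limma). The median was -1.67, but -0.46 on the leukocyte scale, and 0.33 with CD49a+ library 2 alone, against -0.14 for all genes in that fit.

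Ly49 receptors bind class I MHC on potential targets, most of them as inhibitors. Klra8 encodes Ly49H, the receptor for the m157 ligand on the graft. It was at 18.5, 521 and 134 in CD49a+ cells, against 281, 697 and 352 in CD49b+ cells (-1.89 ± 0.83, adjusted p = 0.707). CD49a+ library 2 lay within the CD49b+ range, and its difference alone was 0.34. Klra4, the activating receptor Ly49D, was at 17.5, 193 and 51.5 in CD49a+ cells, against 286, 644 and 351 in CD49b+ cells. All 3 CD49a+ libraries lay below every CD49b+ library (-2.81 ± 0.65, adjusted p = 0.116), with a difference of -1.62 on the leukocyte scale. Klra7 (Ly49G) was at 4.69, 257 and 88.7 in CD49a+ cells, against 263, 442 and 239 in CD49b+ cells, and Klra9 (Ly49I), which in B6 mice recognises class I molecules, was at 0, 151 and 26.3, against 83.8, 188 and 116. Of the 12 Ly49 genes tested 0 passed (limma), 6 were lower and 0 higher at an unadjusted p under 0.05, and the median was -1.02, with -0.25 on the leukocyte scale and 0.07 with CD49a+ library 2 alone. By that unadjusted rule 9 of the 20 pan-leukocyte transcripts and 3.42 percent of all genes were lower. Ly49 genes are close copies of each other, so reads may be split between them and single members are uncertain.

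The same chromosome 6 NK gene complex holds the NKR-P1 and NKG2 families. Klrb1c, which encodes NK1.1 (chromosome 6, 128778485 to 128789215, minus strand), was at 20.2, 124 and 46.1 in CD49a+ cells, against 236, 495 and 305 in CD49b+ cells. The groups did not overlap, and the difference of -2.72 ± 0.54 (6.61-fold lower) had an adjusted p of 0.0534, just over the threshold. It was -1.53 on the leukocyte scale and -1.40 with CD49a+ library 2 alone. Of 21 alternative settings Klrb1c passed in 5, among them the replicate block (adjusted p = 0.0389) and the fit without CD49a+ library 2 (0.00283), and its adjusted p over all of them ranged up to 1. Klrk1, the activating receptor NKG2D, was at 60.3, 697 and 188 in CD49a+ cells, against 202, 546 and 420 in CD49b+ cells, with overlap. Klrc1 (NKG2A) was at 16.8, 372 and 53.4 in CD49a+ cells, against 90.6, 238 and 161 in CD49b+ cells, and its partner Klrd1 (CD94) at 4.24, 238 and 62.7, against 127, 308 and 191. In both, CD49a+ library 2 was among the high libraries and CD49a+ library 1 was the lowest of all 6. Of the 22 genes for other NK receptors 0 passed (limma), 7 were lower and 0 higher at an unadjusted p under 0.05, and the median was -1.18, with 0.01 on the leukocyte scale and 0.26 with CD49a+ library 2 alone. The pan-leukocyte transcripts had 9 of 20 lower by that unadjusted rule, and all genes 3.42 percent.

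Signalling partners of these receptors were also lower, without passing. Fyn, a Src-family kinase, was at 6.96, 25.4 and 6.88 in CD49a+ cells, against 47.2, 77.8 and 71.6 in CD49b+ cells, without overlap (-2.46 ± 0.54, adjusted p = 0.0790), and Lck, its relative, at 10.4, 375 and 86.9, against 347, 543 and 240. Lck had -3.50 without CD49a+ library 2 (adjusted p = 0.00411) and 0.07 with that library alone. Tyrobp, which encodes the adaptor DAP12 of Ly49H and Ly49D, was at 90.5, 716 and 108 in CD49a+ cells, against 447, 1022 and 435 in CD49b+ cells. Of these, Fyn alone separated the groups completely. Among the 16 adaptors and kinases 0 passed (limma), 6 were lower and 0 higher at an unadjusted p under 0.05, and the median was -1.24, with -0.07 on the leukocyte scale and 0.50 with CD49a+ library 2 alone. For comparison, 9 of the 20 pan-leukocyte transcripts and 3.42 percent of all genes were lower by that unadjusted rule.

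Most killing genes did not separate the subsets. Gzmb, granzyme B, was at 4.30, 1278 and 292 in CD49a+ cells, against 391, 933 and 415 in CD49b+ cells. Prf1, perforin, was at 27.7, 1122 and 238 in CD49a+ cells, against 578, 1013 and 647 in CD49b+ cells. Gzma was at 118, 2862 and 755 in CD49a+ cells, against 1702, 2626 and 1953 in CD49b+ cells. In all 3 genes CD49a+ library 2 was the highest of the 6 and CD49a+ library 1 the lowest. Gzmd, Gzme and Gzmf, the neighbours of Gzmc, had at most 4.42 in CD49a+ cells and 5.85 in CD49b+ cells, while Gzmg was below the filter; reads of these close relatives may be shared. Serpinb9, which protects killer cells from granzyme B, was at 51.2, 794 and 224 in CD49a+ cells, against 685, 1293 and 892 in CD49b+ cells. Of the 16 cytotoxic genes tested, of 18 listed, 0 passed (limma), 1 was higher and 4 lower at an unadjusted p under 0.05, and the median was -0.63, with -0.23 on the leukocyte scale and 0.46 with CD49a+ library 2 alone. Lower by that unadjusted rule were 9 of the 20 pan-leukocyte transcripts and 3.42 percent of all genes.

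Among secreted factors, Ccl5, a chemokine stored by mature NK and memory T cells, was at 64.7, 1173 and 231 in CD49a+ cells, against 1637, 3968 and 1724 in CD49b+ cells. All 3 CD49a+ libraries were below the CD49b+ range, with a difference of -3.10 ± 0.78 (8.56-fold lower, adjusted p = 0.197), -1.88 on the leukocyte scale, -0.93 with CD49a+ library 2 alone and -4.18 without that library (adjusted p = 0.00488). Ccl4 overlapped at 7.20, 181 and 41.3 in CD49a+ cells, against 167, 210 and 130 in CD49b+ cells. Xcl1, which attracts cross-presenting dendritic cells, was at 11, 315 and 14.0 in CD49a+ cells, against 46.6, 138 and 68.0 in CD49b+ cells. Ifng stayed low, at 0, 16.2 and 7.57 in CD49a+ cells and 24.5, 38.2 and 3.14 in CD49b+ cells, and Areg, an epithelial repair factor chosen after its values were seen, was at 13.8, 48.7 and 12.2, against 3.15, 6.56 and 8.44, without overlap. Of 15 ligands tested 0 passed (limma), 2 were lower and 0 higher at an unadjusted p under 0.05, and the median was -0.89, with 0.17 on the leukocyte scale. By that unadjusted rule 9 of the 20 pan-leukocyte transcripts and 3.42 percent of all genes were lower.

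On the deposited scale residency genes did not rise as a list, although Itgae was higher in CD49a+ cells. Itgae, which encodes the CD103 integrin chain, was at 24.0, 701 and 54.9 in CD49a+ cells, against 1.84, 23.2 and 23.1 in CD49b+ cells. The groups did not overlap, though CD49a+ library 1 exceeded the highest CD49b+ library only slightly (3.07 ± 0.98, 8.40-fold, adjusted p = 0.444). Scaled to the leukocyte level, Itgae was at 187, 1033 and 295 in CD49a+ cells, against 3.78, 28.3 and 45.0 in CD49b+ cells, a difference of 4.26 (adjusted p = 0.1). With CD49a+ library 2 alone it rose by 5.89 (adjusted p = 0.0423), and without that library the difference was 1.66 (adjusted p = 0.508). CD49a+ cells of recipient skin held 395, 1674 and 169. Cd69, a retention receptor, overlapped at 13.7, 225 and 75.8 in CD49a+ cells, against 60.8, 80.3 and 98.5 in CD49b+ cells, as did Cxcr6 at 0, 27.1 and 19.7 against 6.53, 27.2 and 1.98. Litaf and Rgs1, both in this list, also overlapped, with Litaf at 247, 794 and 253 in CD49a+ cells and 293, 682 and 398 in CD49b+ cells. Zfp683 (Hobit) and Cd200r1 were below the filter, with at most 10.2 and 11.8 in CD49a+ cells and 6.11 and 9.78 in CD49b+ cells. Of the 20 tested residency genes, of 23 listed, 0 passed (limma), with 1 higher and 2 lower at an unadjusted p under 0.05. Their median was -0.27 on the deposited scale, and 0.42 with CD49a+ library 2 alone, against -0.14 for all genes in that fit. On the leukocyte scale the median was 0.87, between -0.03 for the pan-leukocyte transcripts and 1.20 for all genes. There 17 residency genes lay above 0. At an unadjusted p under 0.05 on that scale 5 were higher and 0 lower (limma), against 13.2 and 0.467 percent of all genes.

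Among chemokine receptors Ccr8 and Ccr7 had the smallest p-values. Ccr8, a receptor of skin-homing lymphocytes, was at 10.9, 86.0 and 6.47 in CD49a+ cells, against 0, 8.45 and 1.14 in CD49b+ cells. CD49a+ library 3 lay below CD49b+ library 2, so the groups overlapped, and the difference of 2.86 ± 0.93 did not pass (adjusted p = 0.452). Of 11 receptors tested 0 passed (limma), 2 were higher (Ccr1 and Ccr8) and 3 lower (Ccr7, Cxcr3 and Cxcr4) at an unadjusted p under 0.05, with a median of -0.25.

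Il12rb2 and Il18rap, receptor chains for the activating cytokines IL-12 and IL-18, were lower in CD49a+ cells on the deposited scale, without passing. Il12rb2 was at 25.9, 76.8 and 47.1 in CD49a+ cells, against 215, 272 and 205 in CD49b+ cells (-2.30 ± 0.54, 4.94-fold lower, adjusted p = 0.128). Il18rap was at 54.9, 201 and 97.4 in CD49a+ cells, against 394, 432 and 287 in CD49b+ cells (-1.82 ± 0.49, adjusted p = 0.236). Neither overlapped, and the differences with CD49a+ library 2 alone were -1.56 and -0.86. On the leukocyte scale Il12rb2 had -1.10 and Il18rap -0.61 (adjusted p = 0.352 and 0.437, limma). Their partner chains did not separate, with Il12rb1 at 9.99, 59.4 and 21.3 in CD49a+ cells and 7.74, 41.7 and 12.6 in CD49b+ cells, and Il18r1 at 62.0, 144 and 55.9 in CD49a+ cells and 55.4, 92.3 and 46.9 in CD49b+ cells. Il2rb, the shared receptor chain for IL-2 and IL-15, was at 65.4, 1612 and 273 in CD49a+ cells, against 956, 2088 and 872 in CD49b+ cells, and Il7r at 5.0, 103 and 17.8 against 13.4, 46.6 and 20.1. Of 22 cytokine receptors tested 0 passed (limma), 5 were lower and 0 higher at an unadjusted p under 0.05, and the median was -0.37, with 0.83 on the leukocyte scale. For comparison, 9 of the 20 pan-leukocyte transcripts and 3.42 percent of all genes were lower by that unadjusted rule.

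Satb1, a chromatin organiser of lymphocytes, was lower in CD49a+ cells just short of the threshold. It was at 49.1, 112 and 41.1 in CD49a+ cells, against 288, 233 and 570 in CD49b+ cells (-2.44 ± 0.45, 5.44-fold lower, adjusted p = 0.0510), and its groups did not overlap. The difference was -1.24 on the leukocyte scale (adjusted p = 0.352), -1.58 with CD49a+ library 2 alone (0.791) and -2.88 without that library (0.00283). Runx3, a factor of cytotoxic and resident lymphocytes, was at 45.0, 123 and 18.1 in CD49a+ cells, against 464, 190 and 56.0 in CD49b+ cells, and Id2, which NK cells need, at 11.7, 309 and 75.3 against 219, 440 and 250. Gata3 lay higher without overlap, at 92.8, 88.3 and 143 in CD49a+ cells, against 27.6, 81.2 and 38.4 in CD49b+ cells (1.23 ± 0.81, adjusted p = 0.913). Of 21 lymphocyte transcription factors tested 0 passed (limma), 6 were lower and 0 higher at an unadjusted p under 0.05, and the median was -0.64, with 0.55 on the leukocyte scale and -0.01 with CD49a+ library 2 alone. The pan-leukocyte transcripts had 9 of 20 lower by that unadjusted rule, and all genes 3.42 percent.

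Inhibitory receptors showed no common shift. Tigit was at 76.7, 327 and 237 in CD49a+ cells, against 280, 542 and 275 in CD49b+ cells. Pdcd1, which encodes PD-1 and was chosen after its values were seen, was at 5.69, 49.5 and 8.75 in CD49a+ cells, against 1.51, 1.19 and 7.22 in CD49b+ cells, and Nt5e, the CD73 ectoenzyme, at 54.1, 113 and 56.7 against 15.4, 35.4 and 21.1. Only Nt5e of these separated the groups (1.59 ± 0.84, adjusted p = 0.822). Of 14 genes tested 0 passed (limma), 0 were higher and 2 lower at an unadjusted p under 0.05, with a median of -0.10, and 1.00 with CD49a+ library 2 alone. The 17 TGF-beta response genes had 1 gene, Itgae, at an unadjusted p under 0.05 and 0 that passed (limma), with a median of 0.01.

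**Figure D3:**
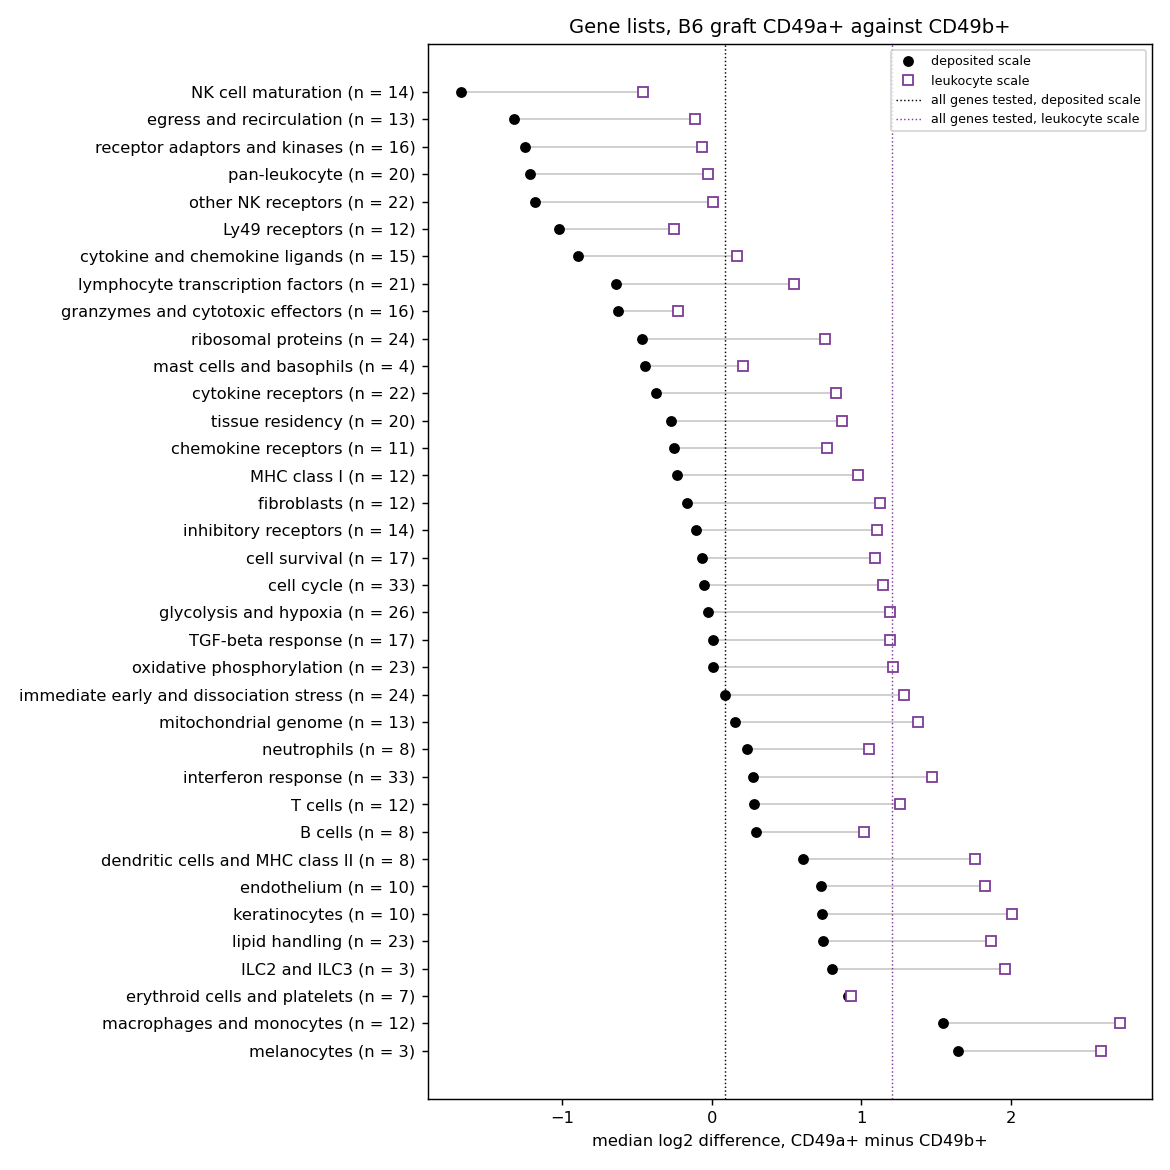
Median log2 difference (CD49a+ minus CD49b+, horizontal axis) of each gene list, with the number of genes tested, on the deposited scale (black circles) and the leukocyte scale (open squares). Dotted lines mark the medians of all genes tested, 0.09 and 1.20; on the deposited scale the maturation and egress lists lie farthest below and the melanocyte and macrophage lists farthest above.

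Few genes of general cell state programmes differed, and list medians lay between -0.47 and 0.27, against 0.09 for all genes. Of 33 cell cycle genes 0 passed (limma), 2 were higher and 2 lower at an unadjusted p under 0.05, and Mki67 was at 37.0, 40.9 and 38.1 in CD49a+ cells, against 26.7, 38.1 and 31.5 in CD49b+ cells. Cenpf, a kinetochore protein, was at 79.1, 6005 and 57.6 in CD49a+ cells, against 34.9, 5.09 and 8.82 in CD49b+ cells, and the other cycle genes of CD49a+ library 2 were at most at 145. Of 33 interferon response genes 0 passed (limma) and 0 were higher and 1 lower at an unadjusted p under 0.05 (median 0.27), and of 12 MHC class I genes 0 differed by either rule in limma (median -0.23). The 26 glycolysis and hypoxia genes, the 23 oxidative phosphorylation genes, the 24 ribosomal protein genes and the 17 survival genes each had 0 that passed and 0 at an unadjusted p under 0.05 (limma), with medians of -0.03, 0.01, -0.47 and -0.06. Ribosomal protein genes lay mostly to 1 side, with 22 of 24 differences below 0. On the leukocyte scale their median was 0.75, against 1.20 for all genes. Of 24 immediate early and dissociation stress genes 0 passed (limma) and 1 was lower at an unadjusted p under 0.05, Dusp2 (median 0.09).

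Lipid handling genes had a median of 0.74, with 18 of 23 differences above 0, 0 that passed (limma) and 2 higher and 2 lower at an unadjusted p under 0.05. Scd1, the stearoyl-CoA desaturase, was at 32.9, 547 and 1016 in CD49a+ cells, against 36.0, 0.337 and 12.9 in CD49b+ cells (4.92 ± 1.64, adjusted p = 0.483). Acaca, which makes malonyl-CoA for fatty acid synthesis, was at 2441, 39.9 and 236 in CD49a+ cells, against 76.1, 51.5 and 37.6 in CD49b+ cells. Scd1 was highest in CD49a+ library 3 and Acaca in CD49a+ library 1, and the groups overlapped. The median of the list was -0.20 with CD49a+ library 2 alone and 1.70 without that library. Keratinocyte and fibroblast sums were high in CD49a+ libraries 1 and 3, as given above, and their part in this result was not tested.

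Leaving out predicted genes and pseudogenes, among genes without overlap and with a mean of at least 50 the smallest p-values with lower signal in CD49a+ cells included those of Satb1, Cln3, Arid3b, Adora2a, Klrb1c, Pim2 and Serpinb9b. Adora2a, an adenosine receptor, was at 1.71, 16.0 and 11.8 in CD49a+ cells, against 50.6, 143 and 44.5 in CD49b+ cells (-3.05 ± 0.60, adjusted p = 0.0534). Pim2, a survival kinase, was at 3.72, 71.7 and 31.6 in CD49a+ cells, against 418, 141 and 356 in CD49b+ cells (-3.63 ± 0.76, adjusted p = 0.0718). Both sets of 3 CD49a+ libraries lay wholly below the CD49b+ ones. Serpinb9b, a serine protease inhibitor gene next to Serpinb9, was at 12.8, 8.90 and 4.06 in CD49a+ cells, against 62.4, 151 and 170 in CD49b+ cells. Cln3, a lysosomal membrane protein, was at 8.6, 9.56 and 9.32 in CD49a+ cells, against 66.5, 39.3 and 113 in CD49b+ cells (-2.74 ± 0.52, adjusted p = 0.0534). Arid3b, a DNA-binding protein, was at 9.27, 2.49 and 0.771 in CD49a+ cells, against 155, 32.9 and 230 in CD49b+ cells.

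On the higher side the same rule named Elfn1, H2-Q10, Sumf2, Oacyl, Ikbkg, Pcdhb21, Acat2 and Crx. H2-Q10, a nonclassical class I gene, was at 2323, 7979 and 256 in CD49a+ cells, against 27.2, 74.1 and 62.7 in CD49b+ cells (5.04 ± 1.04, 32.8-fold, adjusted p = 0.0718), and it rose by 6.25 on the leukocyte scale (adjusted p = 8.4e-05). Without CD49a+ library 2 the difference was 3.92 on the deposited scale (adjusted p = 0.0933). Its reads may be shared with the near-identical Q genes beside it, so the level is uncertain; H2-Q7, from the same region, overlapped at 456, 1327 and 713 in CD49a+ cells and 812, 2364 and 975 in CD49b+ cells. Sumf2, a protein of the sulfatase-modifying family, was at 336, 174 and 182 in CD49a+ cells, against 50.8, 28.2 and 28 in CD49b+ cells (2.65 ± 0.56, 6.26-fold, adjusted p = 0.0718). Ikbkg, the regulatory NEMO subunit of the IkappaB kinase, was at 435, 107 and 215 in CD49a+ cells, against 23.5, 53.9 and 10.6 in CD49b+ cells (adjusted p = 0.136). For both genes all 3 CD49a+ libraries lay above every CD49b+ library. Elfn1, a synaptic membrane protein, was instead at 4982, 2307 and 6.95 in CD49a+ cells, against 0.833, 1.16 and 1.37 in CD49b+ cells (adjusted p = 0.0742), so library 3 did not share the level of the other CD49a+ libraries.

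Transcripts of other cell types were present in both subsets and varied by library. Of 12 macrophage and monocyte markers tested 0 passed (limma) and 1, the scavenger receptor Cd163, was higher at an unadjusted p under 0.05, yet 12 had differences above 0 (median 1.55). Their sum was 1198, 2158 and 388 in CD49a+ cells, against 378, 248 and 68.5 in CD49b+ cells. Cd163 alone gave 1395 of the sum in CD49a+ library 2. It was at 10.5, 1395 and 14.1 in CD49a+ cells, against 14.4, 2.50 and 4.08 in CD49b+ cells, with overlap. Csf1r was at 57.7, 35.4 and 30 in CD49a+ cells, against 20.55, 9.89 and 5.33 in CD49b+ cells, without overlap, while C1qa and C1qb were listed at 0 in CD49a+ library 2. With CD49a+ library 2 alone the median of the list was -0.27. The T cell marker Cd3d was at 38.4, 75.7 and 85.5 in CD49a+ cells, against 57.4, 33.0 and 38.6 in CD49b+ cells, and Trac, the T cell receptor alpha constant gene, reached at most 13.9 in CD49a+ cells and 3.32 in CD49b+ cells. Of 12 T cell markers tested 0 passed (limma) and 1, Trbc1, was lower at an unadjusted p under 0.05. Of 9 markers of type 2 and type 3 innate lymphoid cells, only Gata3, Il1rl1 and Arg1 passed the filter, 0 differed by either rule (limma), and Il22 was at most at 0 in CD49a+ cells and 2.84 in CD49b+ cells. Of 3 melanocyte, 8 dendritic cell, 8 B cell, 8 neutrophil, 10 endothelial, 10 keratinocyte, 12 fibroblast and 7 erythroid and platelet markers tested, 0 passed (limma), and Pmel of melanocytes, Blk of B cells, Mmp8 of neutrophils and Col17a1 of keratinocytes were higher at an unadjusted p under 0.05.

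The F1 model, at day 10 and with B2m+/- grafts, was used to ask whether CD49a+ and CD49b+ cells differed alike in both settings. In F1, 1 gene rose and 0 fell in CD49a+ cells (0.00623 and 0.00 percent of genes tested), and 407 were higher (2.54 percent) and 330 lower (2.06 percent) at an unadjusted p under 0.05 (limma). The F1 groups did not overlap for 6.54 percent of genes higher and 3.75 percent lower. The difference between the models passed for 1 gene, Ccdc37 (0.00623 percent), with 262 higher and 299 lower in B6 at an unadjusted p under 0.05 (1.63 and 1.86 percent). Ccdc37 entered the test only through the F1 CD49a+ libraries, the group in which it was high. Model, host genotype, graft genotype and day differ together and cannot be told apart. Cma1 was at 54.2, 21.4 and 23 in F1 CD49a+ cells, against 176.5, 97.1 and 69.1 in F1 CD49b+ cells, a difference of -1.79 ± 0.64 (adjusted p = 0.907). Its groups did not overlap in F1 either, and the B6 minus F1 difference of -2.12 ± 0.91 did not pass (adjusted p = 1). The B6 CD49a+ libraries held less Cma1 than every F1 CD49a+ library.

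Gzmc, Itgae, Ccr8, Klrb1c and Ccl5 had the same sign in both models, and none of their B6 minus F1 differences passed (limma). Gzmc had a log2 difference of 1.66 ± 1.04 in F1, where CD49a+ cells averaged 100 ± 114 and CD49b+ cells 25.4 ± 18.4, and Itgae one of 1.5 ± 0.98, at 13.2 ± 8.53 and 4.16 ± 3.59 (SD, n = 3 each). Ccr8 was at 4.24 ± 2.37 in F1 CD49a+ cells and listed at 0 in all 3 F1 CD49b+ libraries. Klrb1c had -1.22 ± 0.54 in F1, with 67.9 ± 42.8 in CD49a+ cells and 137 ± 35.1 in CD49b+ cells. Ccl5 had -2.41 ± 0.78 in F1, at 197 ± 87.3 in CD49a+ cells and 1019 ± 393 in CD49b+ cells. H2-Q10 had the opposite sign, with -1.10 ± 1.04 in F1, at 36.3 ± 19.5 in CD49a+ cells and 73.3 ± 15.1 in CD49b+ cells (B6 minus F1 6.14 ± 1.48, adjusted p = 0.856). Itga1 had a difference of 1.96 ± 0.81 in F1, at 40.5 ± 17.0 in CD49a+ cells and 11.8 ± 9.35 in CD49b+ cells. The F1 medians of the lists were -0.20 for egress, -0.63 for maturation, -1.38 for Ly49 receptors and -0.39 for other NK receptors, against 0.11 for all genes. In F1 the pan-leukocyte level was 41.2, 31.3 and 27.9 percent of circulating in CD49a+ cells, against 45.9, 40.7 and 46.5 percent in CD49b+ cells. Across the 16045 genes the differences of both models correlated with r = 0.163, and 60 percent had the same sign; genes are not independent replicates, and the comparisons share no libraries.

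**Figure D4:**
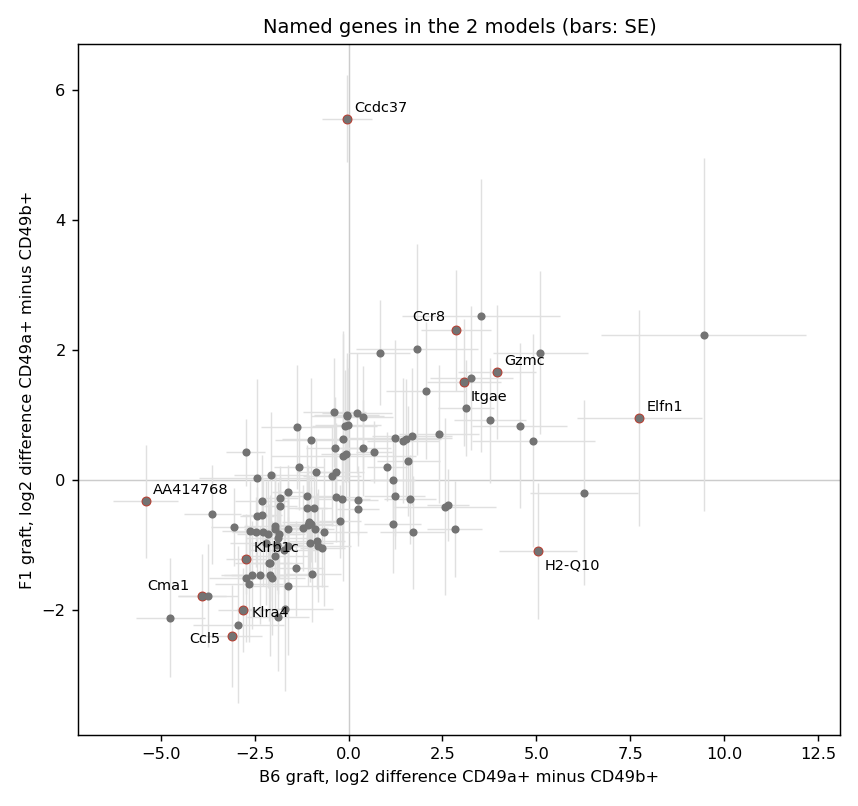
Log2 difference CD49a+ minus CD49b+ in B6 grafts (horizontal axis) and F1 grafts (vertical axis) for 116 named genes, with bars for the SE of each. Labelled genes are ringed in red; Cma1, Klrb1c and Ccl5 lie below 0 and Gzmc, Itgae and Ccr8 above 0 on both axes, and Ccdc37 lies at -0.04 in B6 and 5.56 in F1.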

How the data were processed

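RNA of sorted NK cells was sequenced in 30 libraries of 10 groups, 3 libraries each; 6 libraries form the comparison and 6 F1 graft libraries the test of difference. The deposited table holds signal: normalized values of the authors. The tools DESeq2 and Salmon and the builds GRCm38 and mm10 are named per the submitters' processing notes; versions, annotation and filters were not stated there. Whole reads could not be recovered, because whole steps (tolerance 0.1) fitted 15 to 22.1 percent of each library's low values, so depth is unknown and no count model was used. Of 30616 entries, 1 without a name, 27 with date names and 1 holding a letter were left out, and 2 numeric columns were not used.

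The signal was tested as log2(signal + 1) with limma 3.58.1 (R 4.3.3), 1 mean per group over all 30 libraries, trend and robust variances and Benjamini-Hochberg adjustment over 16045 genes (threshold 0.05). The +1 understates differences of low genes. Folds are fitted differences taken off the log2 scale. Locations come from GENCODE M21, which matched 28581 genes, and Adgre1 and Lilrb4a were found under the older symbols Emr1 and Lilrb4. The fit was tested on simulated data, and Python 3.11.15, pandas 2.3.3 and matplotlib 3.10.9 were used for tables and figures.

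Named genes were those called, the 8 higher and 8 lower with the smallest p among groups without overlap and a mean of at least 50 (no predicted genes, pseudogenes, receptor segments, mitochondrial or sort genes), the 2 smallest p per function list, the most abundant member per marker list, a list of hallmark genes and genes called between models. Others, such as Areg, Pdcd1, Nt5e, Id2, Il2rb, Litaf, Csf1r, Klra7, Klra9, Klrc1, Cxcr3, Cxcr4, Ccr1, Il12rb1, Il18r1, Mki67, C1qa, C1qb, Trac, Cd3d, Zfp683, Cd200r1, Il22, Pmel, Blk, Mmp8, Col17a1 and Gm8337, were chosen after their values were seen. Members and gene lists were chosen with earlier results of these data known. Some items are not reported here. Alternatives changed the pseudocount, filter, scaling, weights, library block, libraries sharing the spread and single libraries. Library numbers were not used as pairs: the deviations of same-numbered libraries correlated with r = 0.0945, 0.377 and 0.0777. Library 2 nevertheless had the highest pan-leukocyte level in B6 graft CD49a+, graft CD49b+ and recipient skin cells, so a shared source is not excluded.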

Additional observations from a re-analysis of the deposited data

Results flagged for a closer look

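Ccdc37, a gene without a match in the annotation used, differed between the models in its CD49a+ against CD49b+ contrast, by a test of the difference itself (B6 minus F1 -5.60 ± 0.95, adjusted p = 0.0397, limma). In F1 grafts it was at 53.5, 63.3 and 52.6 in CD49a+ cells, against 0, 0 and 0.797 in CD49b+ cells. In B6 grafts it was at 2.99, 0 and 0 in CD49a+ cells, against 0.901, 0.361 and 0.693 in CD49b+ cells. All 3 F1 CD49a+ libraries were thus high and all other graft libraries near 0, and the call held in 10 of 24 alternative settings. No other library of the series reached a signal of 10. Ccdc37 therefore passed the filter only through the group in which it was high, and the call is not independent of that filter.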

How the results depend on the processing

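The CD49a+ against CD49b+ comparison had 2 calls. It had 6 with a pseudocount of 0.5 and 18 with 10, 7 with no filter and 13 with a filter of 50, 27 with library weights (4 higher, 23 lower), 0 with the same total for every library (880 at an unadjusted p under 0.05), 0 with the 18 skin libraries alone (555 unadjusted) and 1, Gm8337, with the 6 libraries alone, all by limma. The calls numbered 2 with quantile normalization, with equal totals without satellite-like genes and on the leukocyte scale, where 0 were shared with Cma1 and AA414768.

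With library numbers as a replicate block there were 9 calls (1 higher, 8 lower), 0 with the 6 libraries alone and the block (869 unadjusted, limma), and 0 for the difference between models (600 unadjusted). Whether libraries of the same number share a recipient is not given in the labels. Same-numbered deviations had r = 0.0945, 0.377 and 0.0777, not all above the 0.1 asked for pairing, and CD49a+ library 1 correlated best with CD49b+ library 3 (0.102), and CD49a+ library 3 with CD49b+ library 1 (0.181).

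Leaving out 1 library gave 0 to 113 calls. There were 113 without CD49a+ library 2 (30 higher, 83 lower), among them 22 genes of function lists and 3 pan-leukocyte genes. There were 21 without CD49b+ library 2, 4 and 6 without CD49a+ library 1 or 3, and 0 without CD49b+ library 1 or 3 (1308 and 922 unadjusted, limma). Alternatives chosen after seeing the data gave 19 calls with CD49a+ library 2 alone (17 higher, 2 lower, 0 shared) and 0 with the 15 B6 libraries alone (855 unadjusted, limma).

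The difference between models had 1 call. It had 0 with a pseudocount of 0.5 (548 unadjusted), a filter of 50 (242) or the 18 skin libraries alone (295), 4 with no filter, 5 with CD49a+ library 2 alone and 0 to 8 when 1 library was left out, the 8 without B6 CD49a+ library 2. On the leukocyte scale the call was H2-Q10, not Ccdc37.

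Cma1 was below 0 in all 21 settings, -4.50 to -2.23, and called in 12, and AA414768 was below 0 in all 20, -6.32 to -2.81, and called in 11. The pan-leukocyte difference ranged over -1.93 to -0.73 when 1 library was left out. Tbx21, Klrg1, Lck, Il2rb and Trbc1 were called lower without CD49a+ library 2 (-3.38, -2.88, -3.50, -3.16 and -3.58) and lay above 0 with that library alone (0.92, 0.07, 0.07, 0.42 and 0.32, none called). The cause of these shifts was not tested, and the depth behind them is unknown.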
